A study of Mus musculus with 4 samples.

Results

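The end-joining genes are 9 genes whose products rejoin broken DNA ends by the classical pathway or by the pathway that uses DNA polymerase theta. They were chosen by name for their known function and are Xrcc5, Xrcc6, Prkdc, Dclre1c, Xrcc4, Lig4, Nhej1, Trp53bp1 and Polq, 9 of the 24116 genes in the count table. RNA-seq libraries of mouse embryonic stem cells (ESCs) lacking the telomerase RNA gene Terc were compared with libraries of wild-type (WT) ESCs, to follow how gene expression differs in cells that cannot maintain telomeres with telomerase. The line titled G3 Terc-/- F35 supplied the G3 *Terc*-/- ESCs. Both parents of its embryos of origin, from the generation before, already lacked Terc. The WT ESCs, titled G3 WT N12, carried no Terc deletion. Both lines were C57BL/6, both were grown on feeder cells in serum medium with leukemia inhibitory factor, and both gave poly(A) RNA for 2 libraries described as biological replicates. With 1 line per genotype, genotype and line cannot be told apart, and p-values measure the spread between libraries of these 2 lines.

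Classical end joining begins when the Ku heterodimer slides onto a DNA end and recruits the catalytic subunit of DNA-dependent protein kinase, after which ends are trimmed and sealed by the XRCC4 and ligase IV complex. The alternative route anneals short repeats on resected ends, with polymerase theta filling the gaps. At telomeres that have lost their protective cap, the same machinery can join chromosome ends to each other, and in ESCs it works beside homologous recombination, which is active in these fast-cycling cells.

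The depth of the WT libraries was 22057607 and 22520017 gene counts, and that of the G3 *Terc*-/- libraries was 21898081 and 18047995. Terc itself (gene identifier 21748) had 7 and 2 counts in WT ESCs, against 0 and 0 in G3 *Terc*-/- ESCs, in the direction of the labels; its RNA is not polyadenylated, and the counts were few. All 9 end-joining genes passed the filter on low counts. Positions are those of the mouse genome build GRCm38.

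At an adjusted p under 0.05 (quasi-likelihood test of edgeR, Benjamini-Hochberg adjusted over all genes), 1 of the 9 genes was higher in G3 *Terc*-/- ESCs, Xrcc5, against 21.7% of the 14896 genes tested that were higher. Trp53bp1, Xrcc6, Polq and Dclre1c were lower, 4 of 9, against 21.8% of all genes tested. In either direction 55.6% of the end-joining genes were called, beside 43.5% of all genes, a share near the background. Their median log2 fold change was -0.141, and that of all genes tested was 0.00625. The study's cutoffs for genes were a fold change over 2 with a p under 0.05, computed with Cufflinks, which was not run here. At these cutoffs, with an unadjusted p, 0 of the 9 were called with edgeR and 0 with DESeq2. Of all genes tested, 7.85% passed with edgeR and 6.53% with DESeq2. At an unadjusted p under 0.05 with no cutoff on size, edgeR called 5 of the 9, 1 higher and 4 lower, beside 49.8% of all genes, and DESeq2 at a Benjamini-Hochberg adjusted p under 0.05 called 3, 1 higher and 2 lower, beside 29.3% of all genes. In bulk RNA, fewer cells of a type and less RNA per cell cannot be told apart, and this holds for every difference given here. Where genotypes are said not to overlap, this is a description only. The smallest two-sided exact permutation p that 2 against 2 libraries allow is 0.333. The share of all genes without overlap was not counted.

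**Figure D1:**
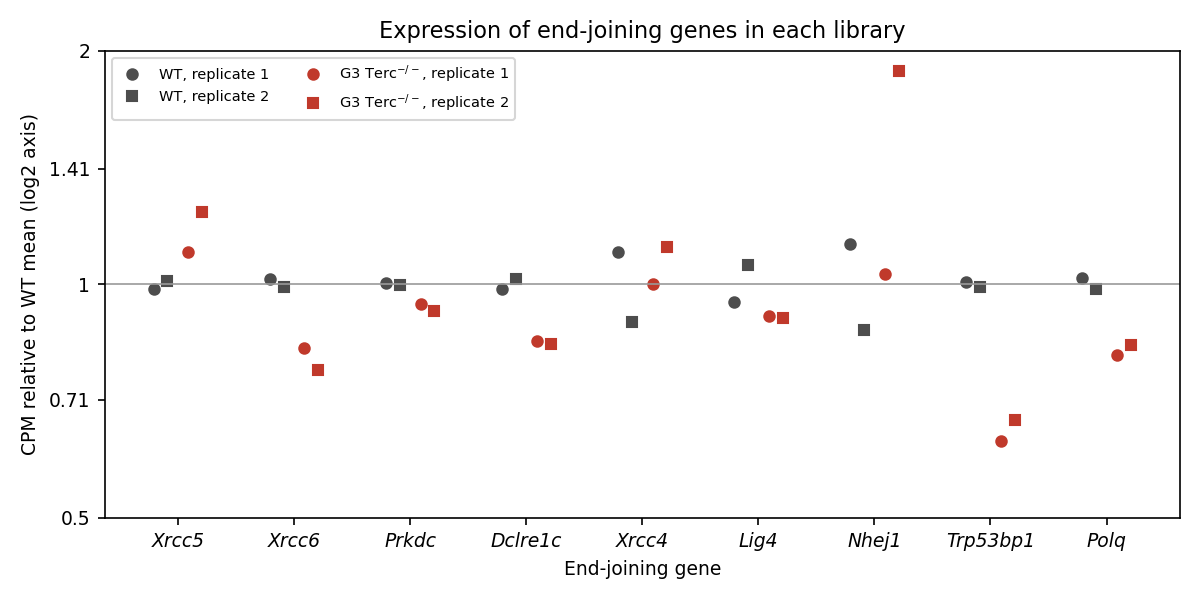
Library-scaled counts (CPM) of each end-joining gene in each of the 4 libraries, divided by the mean of the 2 WT libraries and drawn on a log2 axis; circles are replicate 1 and squares replicate 2. The G3 *Terc*-/- libraries lie above both WT libraries for Xrcc5 and below them for Xrcc6, Dclre1c, Trp53bp1 and Polq. They also lie below them, by less, for Prkdc and Lig4, and 1 G3 *Terc*-/- library stands apart for Nhej1. With 2 libraries per genotype, lack of overlap is a description only.

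The genes of the Ku subunits, which together form the ring that first holds a broken end, differed in opposite directions. Xrcc5 (gene identifier 22596, chr1:72307417-72394953, plus strand), which encodes the larger subunit, had 4434 and 4620 counts in WT ESCs, against 5040 and 4652 in G3 *Terc*-/- ESCs. In CPM, counts divided by the library's total with TMM scaling and given per 1000000, these were 203 and 208 CPM in WT ESCs, against 227 and 255 CPM in G3 *Terc*-/- ESCs. Both G3 *Terc*-/- libraries were thus above both WT libraries, and they differed from each other by more than the WT pair did. Xrcc5 was higher by a log2 fold change of 0.23 (standard error 0.05, 95% interval 0.12 to 0.34, adjusted p = 5.59e-04, edgeR with Benjamini-Hochberg adjustment), a fold change of 1.17. Without G3 *Terc*-/- replicate 2 the log2 fold change of Xrcc5 was 0.15.

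Xrcc6 (gene identifier 14375, chr15:81987833-82040085, plus strand) encodes the smaller Ku subunit and had 2817 and 2793 counts in WT ESCs, against 2319 and 1796 in G3 *Terc*-/- ESCs. The levels were 129 and 126 CPM in WT against 105 and 98.4 CPM in G3 *Terc*-/-, with no overlap between the genotypes. Xrcc6 fell by 0.33 in log2 units (standard error 0.06, adjusted p = 6.77e-06, edgeR with Benjamini-Hochberg adjustment), to 0.80 of the WT level.

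Because both genes are counted in the same library, their ratio does not depend on how libraries are scaled. Per kilobase of exon, the ratio of Xrcc5 to Xrcc6 was 2.76 (95% Wilson interval 2.63 to 2.89) and 2.90 (2.76 to 3.04) in the WT libraries. In the G3 *Terc*-/- libraries it was 3.81 (3.62 to 4.0) and 4.54 (4.30 to 4.79). The ratio's level depends on the exon lengths used, which are the same in all libraries. The intervals cover counting error only, and those of the G3 *Terc*-/- libraries lay above those of both WT libraries and apart from each other. The mean ratio was 2.83 ± 0.0992 in WT ESCs and 4.17 ± 0.516 in G3 *Terc*-/- ESCs (SD, n = 2 each), a log2 difference of 0.56. An exact two-sided permutation test gave p = 0.333, the smallest that 2 against 2 libraries allow.

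**Figure D2:**
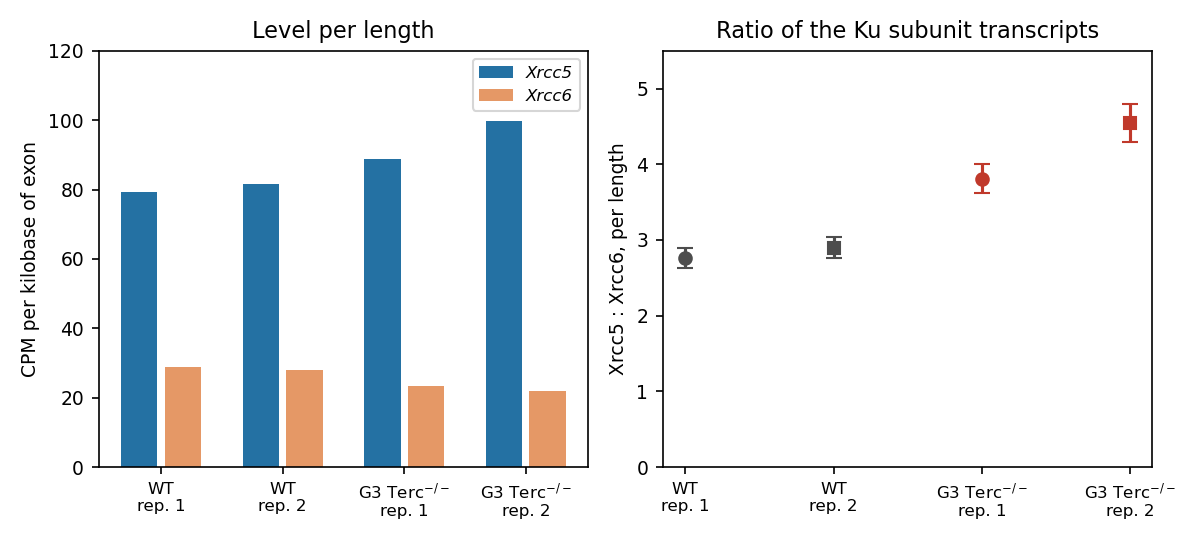
Left, level of Xrcc5 and Xrcc6 in each library in CPM per kilobase of exon, as bars from 0. Right, the per-length ratio of Xrcc5 to Xrcc6 with its 95% Wilson interval for counting error, between 2.76 and 2.90 in the 2 WT libraries and at 3.81 and 4.54 in the 2 G3 *Terc*-/- libraries.

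Prkdc (gene identifier 19090, chr16:15637444-15842239, plus strand), the kinase subunit that Ku recruits, had 71.0 and 70.6 CPM in WT ESCs, against 66.7 and 65.5 CPM in G3 *Terc*-/- ESCs. The genotypes did not overlap, but the log2 fold change of -0.10 (95% interval -0.23 to 0.03) was not called (adjusted p = 0.222, edgeR with Benjamini-Hochberg adjustment). Dclre1c (gene identifier 227525, chr2:3424061-3474211, plus strand) encodes Artemis, the nuclease that this kinase activates to open hairpins and trim ends. It had 29.3 and 30.2 CPM in WT, from 640 and 669 counts, and 25.1 and 24.9 CPM in G3 *Terc*-/-, from 556 and 455 counts. The G3 *Terc*-/- libraries lay close together and below both WT libraries. Dclre1c fell by 0.25 (standard error 0.08, adjusted p = 0.0116, edgeR with Benjamini-Hochberg adjustment). The call was lost with DESeq2 (adjusted p = 0.0944), and with edgeR when WT replicate 1 (adjusted p = 0.0519) or WT replicate 2 (adjusted p = 0.115) was left out, all with Benjamini-Hochberg adjustment.

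None of the 3 genes of the ligation step was called at an adjusted p under 0.05 with edgeR or with DESeq2. Among all genes tested, edgeR called 43.5% and DESeq2 29.3%. With edgeR 0 of the 3 had an unadjusted p under 0.05, beside 49.8% of all genes. Their standard errors of 0.11 to 0.26 were larger than those of the other members, and 3 genes are too few to set against these shares. Lig4 (gene identifier 319583, chr8:9970020-9977680, minus strand), the ligase dedicated to this pathway, had 14.8 and 16.5 CPM in WT ESCs, against 14.2 and 14.1 CPM in G3 *Terc*-/- ESCs. The genotypes did not overlap, and the fitted log2 fold change of Lig4 was -0.14 (95% interval -0.36 to 0.08), with -0.22 without WT replicate 1 and -0.06 without WT replicate 2. Xrcc4 (gene identifier 108138, chr13:89848914-90089608, minus strand), the scaffold that stabilises the ligase, had 12.1 and 9.83 CPM in WT ESCs, against 11.0 and 12.3 CPM in G3 *Terc*-/- ESCs, and the genotypes overlapped. For Xrcc4 the fit gave a log2 fold change of 0.09 (95% interval -0.17 to 0.34), and it was -0.06 without WT replicate 2.

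Nhej1 (gene identifier 75570, chr1:74967346-75125226, minus strand) encodes XLF, which forms filaments with XRCC4 that bridge the ends. It was the end-joining gene with the fewest counts, 56 and 44 in WT ESCs, against 52 and 78 in G3 *Terc*-/- ESCs, or 2.56, 1.98, 2.34 and 4.27 CPM. G3 *Terc*-/- replicate 2 was thus high and replicate 1 lay between the WT libraries. The log2 fold change of 0.51 (standard error 0.26) was not called (adjusted p = 0.102, edgeR with Benjamini-Hochberg adjustment) and rested on that library. It was 0.05 without G3 *Terc*-/- replicate 2, and 0.91 with an adjusted p of 0.00518 (edgeR with Benjamini-Hochberg adjustment) without replicate 1.

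The ratios within the ligation complex had wide counting errors. Per kilobase of exon, the ratio of Xrcc4 to Lig4 was 1.01 and 0.735 in WT ESCs, against 0.957 and 1.08 in G3 *Terc*-/- ESCs, and the genotypes overlapped (exact two-sided permutation p = 0.667). The ratio of Nhej1 to Xrcc4 was 0.796 and 0.761 in WT ESCs, against 0.80 and 1.31 in G3 *Terc*-/- ESCs, so that G3 *Terc*-/- replicate 1 was level with WT and replicate 2 was above it (exact two-sided permutation p = 0.333).

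Trp53bp1 encodes 53BP1, which binds modified nucleosomes beside a break, holds back resection and so steers the break toward end joining. It is the member with the smallest p and the lowest log2 fold change of the 9 (gene identifier 27223, chr2:121194835-121296354, minus strand). The WT libraries held 2674 and 2656 counts, or 122 and 120 CPM, and the G3 *Terc*-/- libraries 1684 and 1479 counts, or 75.9 and 81.0 CPM. The highest G3 *Terc*-/- library stood well below the lowest WT library, and the spread within each genotype was small beside that gap. The log2 fold change of -0.63 (95% interval -0.75 to -0.51, adjusted p = 6.22e-12, edgeR with Benjamini-Hochberg adjustment) put it at 0.65 of the WT level. Among all genes tested, 17.7% had a larger absolute log2 fold change, and for Xrcc6 and Xrcc5 these shares were 37.4% and 49.9%.

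Polq (gene identifier 77782, chr16:37011741-37095419, plus strand), the polymerase and helicase of theta-mediated end joining, had 496 and 488 counts in WT ESCs, against 401 and 339 in G3 *Terc*-/- ESCs. These were 22.7 and 22.0 CPM in WT ESCs, against 18.1 and 18.6 CPM in G3 *Terc*-/- ESCs, without overlap. Polq fell by 0.29 in log2 units (standard error 0.09, adjusted p = 0.0103, edgeR with Benjamini-Hochberg adjustment). The call was lost with DESeq2 (adjusted p = 0.0936) and, with edgeR, without WT replicate 1 (adjusted p = 0.0970), both with Benjamini-Hochberg adjustment.

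On the per-length scale, CPM per kilobase of exon, the 9 transcripts spanned a wide range of levels. In WT ESCs Xrcc5 stood at 80.5 ± 1.47 (SD, n = 2), Xrcc6 at 28.5 ± 0.479, Trp53bp1 at 8.55 ± 0.133 and Prkdc at 5.37 ± 0.0213, each apart from its neighbour in the order. The other members, Dclre1c, Lig4, Xrcc4, Polq and Nhej1, lay between 3.19 and 2.03, and each neighbouring pair overlapped between libraries. Xrcc5 and Xrcc6 made up 59.2% and 20.9% of the summed per-length level of the 9 genes.

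In G3 *Terc*-/- ESCs the first 4 positions were held by the same genes, with Xrcc5 at 94.3 ± 7.66 (SD, n = 2), Xrcc6 at 22.7 ± 0.969, Trp53bp1 at 5.54 ± 0.256 and Prkdc at 5.01 ± 0.0661. The per-length levels of Trp53bp1 and Prkdc had drawn together but their libraries still did not overlap. Xrcc5 took 67.1% of the summed level and Xrcc6 16.1%. Summed over the 9 genes the level was 136 and 136 in WT ESCs, against 135 and 146 in G3 *Terc*-/- ESCs. When the longest transcript replaced all exons as the length, the order of the first 4 genes was the same in both genotypes, while that among the 5 low genes changed.

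The 9 genes lie on 6 chromosomes, and none is on chromosome 6. Within 1 Mb of the start of Trp53bp1, 41 other genes were tested, with a median log2 fold change of 0.0257, 14 higher and 9 lower. The median was 0.0433 within 0.5 Mb, with 6 higher and 7 lower. Within 2 Mb it was 0.0505, with 20 higher and 11 lower. Around Xrcc6, 35 genes within 1 Mb had a median of 0.0158. Around Xrcc5, 8 genes within 1 Mb had a median of 0.178, with 3 higher and 1 lower. In a window of 2 Mb the median around Xrcc6 was -0.0861, with 11 genes higher and 16 lower. Around Polq 14 genes within 1 Mb had a median of -0.0323, with 1 higher and 3 lower. Within 0.5 Mb of Polq 6 genes had a median of -0.390, with 0 higher and 3 lower. Within 2 Mb of Polq the median was 0.0412, with 7 higher and 9 lower. Around Dclre1c 9 genes within 1 Mb had a median of -0.147, with 2 higher and 2 lower. Within 1 Mb, medians around the uncalled members were 0.0281 for Prkdc (11 genes), 0.178 for Xrcc4 (3 genes), -0.0172 for Nhej1 (40 genes) and -0.0576 for Lig4 (1 gene). In other windows they were -0.0304 for Prkdc within 2 Mb (47 genes) and 0.438 for Xrcc4 within 0.5 Mb (2 genes). For Lig4 the median was -0.167 within 2 Mb (15 genes).

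By the outer start of each gene span, 3 of the members have a gene on the other strand that starts within 1000 bases and points away; by the start used for its promoter below, Xrcc6 also lies 111 bases from the start of Desi1. Prkdc starts 44 bases from Mcm4, a subunit of the replicative helicase, whose levels of 424 and 434 CPM in WT ESCs, against 418 and 420 CPM in G3 *Terc*-/- ESCs, gave a log2 fold change of -0.03 (95% interval -0.13 to 0.06). Lig4 starts 37 bases from Abhd13, which had a log2 fold change of -0.06 (95% interval -0.21 to 0.10). Xrcc4 starts 59 bases from Tmem167, with 52.6 and 56.7 CPM in WT ESCs, against 58.6 and 65.4 CPM in G3 *Terc*-/- ESCs. Tmem167 was higher by 0.18 (adjusted p = 0.0347, edgeR with Benjamini-Hochberg adjustment), a call lost with DESeq2 (adjusted p = 0.148). In edgeR with Benjamini-Hochberg adjustment the call was also lost without WT replicate 1 (adjusted p = 0.340), WT replicate 2 (0.0532) or G3 *Terc*-/- replicate 2 (0.254). Libraries of the genotypes did not overlap for Tmem167, unlike those for Xrcc4. Neither Mcm4 nor Abhd13 was called.

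Some members overlap genes of the opposite strand, and as the strand setting of the counting was not stated, reads from shared exons cannot be told apart. These neighbours were picked out after their values had been seen. The last exons of Trp53bp1 share 2130 of its 14164 exon bases (15.0%) with Tubgcp4, which went the other way, higher by 0.23 (adjusted p = 0.00567, edgeR with Benjamini-Hochberg adjustment). The far upstream part of the Trp53bp1 gene overlaps Map1a, with no shared exon found, and Map1a was lower by a log2 fold change of -0.70 (adjusted p = 1.50e-09, same test). Xrcc6 shares 344 of 4476 exon bases (7.69%) with Desi1, which had 46.0 and 47.2 CPM in WT ESCs, against 40.1 and 38.7 CPM in G3 *Terc*-/- ESCs, and was lower by a log2 fold change of -0.24 (adjusted p = 0.00585, same test). Without WT replicate 2 neither Tubgcp4 (adjusted p = 0.0816) nor Desi1 (0.0838) was called in edgeR with Benjamini-Hochberg adjustment, and Tubgcp4 was not without G3 *Terc*-/- replicate 2 (0.0566). Dclre1c shares 357 bases (3.83%) with Suv39h2, at a log2 fold change of -0.15 that was not called. The log2 fold change of Suv39h2 was -0.22 without WT replicate 1 and -0.07 without WT replicate 2. Xrcc4 shares 112 bases (2.66%) with Tmem167.

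Over the 4 libraries, the genes with the pattern most like that of Trp53bp1 were Arrb2, Pgbd1 and Rffl, at Euclidean distances of 0.0224, 0.0333 and 0.0336 between centred log2 CPM values among 12176 genes compared. Arrb2 had 48.5 and 46.7 CPM in WT ESCs, against 30.1 and 31.6 CPM in G3 *Terc*-/- ESCs. With 4 libraries this likeness mostly restates the difference between genotypes.

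Around the 9 genes, 3 wider lists of end-joining factors held 40 genes in the table, of which 8 were higher and 3 lower at an adjusted p under 0.05 with edgeR, or 27.5% against 43.5% of all genes tested. The distance between these shares depended on the setting: at an unadjusted p under 0.05 with edgeR, 8 were higher and 9 lower, 42.5% against 49.8%, and with the replicate number as a block in edgeR (Benjamini-Hochberg adjusted) the same counts stood against 47.9%. None was lower with DESeq2 (17.5% against 29.3%) or in edgeR without WT replicate 1 (12.5% against 32.8%), both with Benjamini-Hochberg adjustment. Among 10 other classical end-joining factors, 2 were higher and 3 lower, with a median log2 fold change of -0.0840. Aplf, a scaffold that binds Ku and poly(ADP-ribose), had 266 and 255 counts in WT ESCs, against 339 and 307 in G3 *Terc*-/- ESCs. It was higher by 0.44 (adjusted p = 0.00136, edgeR with Benjamini-Hochberg adjustment). Aplf lies on chromosome 6, as do Cyren and Rhno1 of the wider lists, neither of them called. Copy number was not tested. Poll, a gap-filling polymerase, was higher by 0.23. Lower were Wrn, a helicase and exonuclease that Ku stimulates, with a log2 fold change of -0.28, Aptx, which removes adenylate from failed ligations, with -0.26, and Tdp2, which frees ends from trapped topoisomerase, with -0.19. The calls of Poll, Wrn, Aptx and Tdp2 were lost with DESeq2 (Benjamini-Hochberg adjusted p = 0.224, 0.0943, 0.207 and 0.0850), and in edgeR when WT replicate 1 or G3 *Terc*-/- replicate 1 was left out. Poll was also lost without WT replicate 2 and without a filter, Tdp2 with library sizes alone, and Aptx with library sizes alone, upper-quartile factors or a stricter filter. Without G3 *Terc*-/- replicate 1 the log2 fold changes of Wrn, Aptx and Tdp2 were -0.18, -0.07 and -0.09, and without replicate 2 they were -0.37, -0.45 and -0.28.

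Of the 13 genes of the 53BP1 axis and break signalling, 2 were higher and 0 lower with edgeR at an adjusted p under 0.05. Among all genes tested, 21.7% were higher and 21.8% lower. DESeq2 also called 2 and 0, beside 29.3% of all genes in either direction. At an unadjusted p under 0.05 edgeR called 2 higher and 3 lower, beside 49.8% of all genes in either direction. The list's median log2 fold change was -0.00275. Rif1, the effector that 53BP1 recruits to block resection, had 10140 and 10471 counts in WT ESCs, against 11413 and 10820 in G3 *Terc*-/- ESCs and was higher by 0.24 (adjusted p = 2.05e-04, edgeR with Benjamini-Hochberg adjustment), or by 0.14 without G3 *Terc*-/- replicate 2. H2ax, the histone variant phosphorylated at breaks, was also higher by 0.24. Trp53bp1 and its partner Rif1 therefore differed in opposite directions, and the shieldin genes Shld1 and Shld2 had log2 fold changes of -0.03 and 0.09, neither of them called. Shld3 was not analysed here.

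Of the 17 genes of alternative end joining, the pathway that Polq serves, 4 were higher and 0 lower with edgeR at an adjusted p under 0.05. Among all genes tested, 21.7% were higher and 21.8% lower, so the share higher was near the background. DESeq2 also called 4 and 0, beside 29.3% of all genes in either direction. At an unadjusted p under 0.05 edgeR called 4 higher and 2 lower, beside 49.8% of all genes in either direction. Rbbp8, which encodes the resection factor CtIP, was higher by 0.34, Parp1, which marks breaks with poly(ADP-ribose), by 0.20, and Xrcc1, the scaffold of single-strand break repair, by 0.26. Ercc4, a nuclease subunit that trims flaps and was named after its value had been seen, was higher by 0.34. Parp1 (adjusted p = 0.0624) and Ercc4 (adjusted p = 0.0845) were not called in edgeR with Benjamini-Hochberg adjustment without WT replicate 1. The DNA ligases Lig1 and Lig3 had log2 fold changes of -0.01 and -0.11, not called, as for Lig4.

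**Figure D3:**
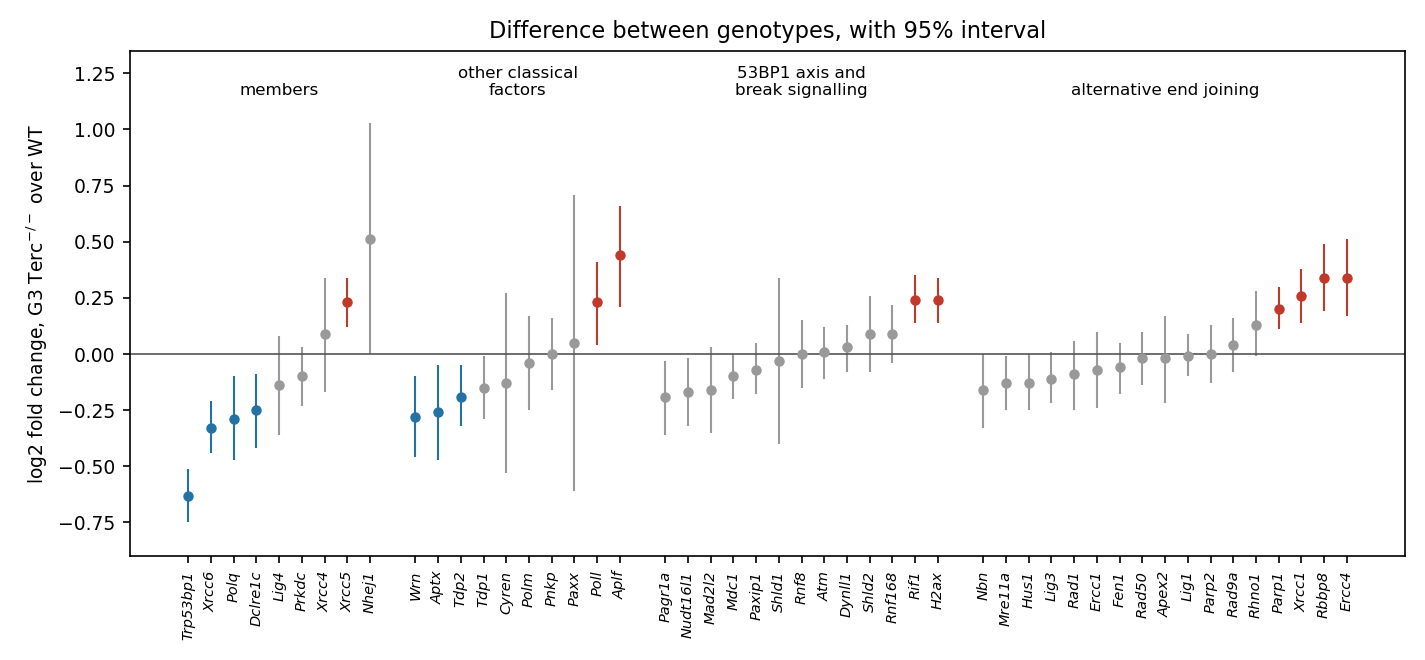
Log2 fold change of G3 *Terc*-/- over WT ESCs for the 9 end-joining genes and the 40 genes of 3 wider lists, points with 95% intervals from the edgeR fit on 2 libraries per genotype. Red genes were higher and blue genes lower at an adjusted p under 0.05 and grey genes were not called; 1 end-joining gene is red and 4 are blue, against 2 and 3 of the other classical factors, 2 and 0 of the 53BP1 list and 4 and 0 of the alternative list, where 21.7% of all genes tested were higher and 21.8% lower.

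Rag1, Rag2 and Dntt, 3 genes that act with end joining when lymphocytes rearrange antigen receptor genes, had 0 counts in all 4 libraries, which allows up to 0.137 and 0.135 CPM in the WT libraries and 0.135 and 0.164 CPM in the G3 *Terc*-/- libraries (3 counts, counting error only). Dclre1c transcripts were thus present where those of the recombinase, whose hairpins Artemis opens in lymphocytes, were not detected at this depth.

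All 12 markers of pluripotent cells were above 0 in each library, summing to 6792 and 6900 CPM in WT ESCs, against 8424 and 8747 CPM in G3 *Terc*-/- ESCs, and the most abundant over the 4 libraries together was Tdgf1, at 1107 and 1128 CPM in WT, where Dppa5a stood above it at 1326 and 1323 CPM. Of these markers 10 were higher and 2 lower, Dppa5a and Utf1, both named after their values had been seen. The 17 markers of feeder fibroblasts summed to 425 and 280 CPM in WT and to 444 and 305 CPM in G3 *Terc*-/- libraries, with Acta2 the most abundant over the 4 libraries together, at 108 and 67.1 CPM in WT ESCs, against 108 and 67.3 CPM in G3 *Terc*-/- ESCs. Tagln, named after its value had been seen, had 108 and 77.0 CPM in WT ESCs, against 86.9 and 68.7 CPM in G3 *Terc*-/- ESCs, and was the marker called lower. As a list they were higher in replicate 1 of both genotypes, and 6 of the 15 tested were higher and 1 lower between genotypes with edgeR, whereas DESeq2 called 2 higher and 0 lower. Of the 15, 14 had a log2 fold change above 0, with a median of 0.406. The 7 markers of primitive endoderm summed to 35.6 and 32.7 CPM in WT ESCs, against 23.3 and 16.9 CPM in G3 *Terc*-/- ESCs, with Dab2 the most abundant over the 4 libraries together and 3 of the 7 lower. None of the 3 lists had a gene at 0 in any library. Their part in the differences of the end-joining genes was not tested.

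Promoters were read from RefSeq (GRCm38.p6), which held 8 of the 9 genes, as the 250 bases before each start; the starts used for Xrcc6, Trp53bp1, Dclre1c, Polq and Xrcc5 lie inside the gene spans given here, by a short way for the last 3, as does 1 of the 2 starts of Lig4, the one with its SP1 boxes. Motifs were matched on both strands, and the share of all 32851 promoters with each was 32.7% for the SP1 box GGGCGG, 33.8% for the CCAAT box, 12.4% for TATAAA, 2.26% for the NRF1 core GCATGCGC, and 0.417% and 0.895% for the E2F cores TTTGGCGC and TTTCCCGC. Of the 8 genes, 6 held the SP1 box, 2 CCAAT, 1 the NRF1 core, 1 an E2F core and 0 TATAAA. The promoters of the Ku subunit genes held different motifs. Xrcc6 had 3 SP1 boxes and TTTCCCGC on the reverse strand with 65.2% G and C, and Xrcc5 had 1 CCAAT box and no SP1 box with 44.8%. Lig4 had the NRF1 core on both strands, the matches overlapping each other, at 1 of its 2 starts.

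The windows of 4 called members are printed 5′ to 3′ on the gene's strand, cut where they reach the gene span's outer start. Matched SP1 and CCAAT boxes are in capitals. Xrcc5 was higher and the other 3 were lower. The window of Xrcc6, also called lower, lies wholly within exons and is not printed. Any link between promoter sequence and direction was not tested. None of the printed stretches overlaps an exon of the GENCODE transcripts that carry an NCBI gene identifier, and that of Trp53bp1 lies inside its gene span. They lie at chr1:72307171-72307416 (plus strand, Xrcc5), chr2:121271408-121271657 (minus strand, Trp53bp1), chr2:3423881-3424060 (plus strand, Dclre1c) and chr16:37011536-37011740 (plus strand, Polq). In the full window Dclre1c carries CCAAT reversed at 3 places and 1 SP1 box, of which 1 CCAAT lies in the printed stretch; Trp53bp1 carries 1 SP1 box, and Polq none of the motifs searched.
Xrcc5: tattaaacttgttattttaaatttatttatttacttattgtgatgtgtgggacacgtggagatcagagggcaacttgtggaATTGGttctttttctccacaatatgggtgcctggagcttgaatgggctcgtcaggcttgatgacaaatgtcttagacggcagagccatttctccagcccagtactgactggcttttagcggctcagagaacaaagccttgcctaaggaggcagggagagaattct
Trp53bp1: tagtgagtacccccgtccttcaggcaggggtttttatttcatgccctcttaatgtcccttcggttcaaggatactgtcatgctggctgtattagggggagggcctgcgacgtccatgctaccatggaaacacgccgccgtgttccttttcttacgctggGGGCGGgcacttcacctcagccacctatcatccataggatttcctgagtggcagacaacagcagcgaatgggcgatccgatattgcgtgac
Dclre1c: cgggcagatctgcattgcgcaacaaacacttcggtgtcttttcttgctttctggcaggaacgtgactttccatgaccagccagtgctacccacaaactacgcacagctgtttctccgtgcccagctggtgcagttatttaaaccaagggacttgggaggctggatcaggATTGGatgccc
Polq: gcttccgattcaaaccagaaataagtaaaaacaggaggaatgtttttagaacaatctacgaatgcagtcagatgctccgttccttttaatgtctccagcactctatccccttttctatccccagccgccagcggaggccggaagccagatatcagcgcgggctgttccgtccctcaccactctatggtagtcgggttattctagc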

How the data were processed

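Reads of the 4 libraries had been processed by the authors, who aligned them to mm10 with STAR; the submitters' processing notes also name Trim Galore and featureCounts, without versions or strand setting. The authors deposited raw counts per gene, without normalization. From these, 24061 of 24116 NCBI gene identifiers were matched to symbols, with positions from RefSeq (GRCm38.p6) and exon lengths from GENCODE of the same build. Only GENCODE transcripts with an NCBI gene identifier were used, for lengths and for shared exons. A second table, of transposable element copies, was not used here.

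Genes were filtered with filterByExpr and tested with edgeR 4.0.16 in R 4.3.3 (TMM, two-sided quasi-likelihood test, no term but genotype), with Benjamini-Hochberg adjustment over the 14896 genes tested. CPM are counts per 1000000 of the TMM-scaled library total, and the per-length level divides CPM by kilobases of all annotated exons. Similar genes were sought where counts averaged 50 or more. Wilson intervals and permutation tests used scipy 1.17.1. Alternatives were DESeq2 1.42.0, other scaling, other filters, a replicate block and each library left out.

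The genes named are the 9 members, every head-to-head partner, in each wider list the 3 called genes with the smallest p in each direction and every gene that failed the filter, Terc, the 3 most similar genes and the most abundant gene of each marker list; other genes named were chosen after their values had been seen. The members and lists were chosen with earlier results of these data known. A gene of the list of lymphoid partners is not reported here.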

Additional observations from a re-analysis of the deposited data

How the results depend on the processing

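Trp53bp1, Xrcc5 and Xrcc6 kept their call and direction under all 12 alternatives, with log2 fold changes from -0.67 to -0.58, from 0.15 to 0.31 and from -0.37 to -0.28. Prkdc, Lig4 and Xrcc4 were called under none. The members called lower numbered 2 with DESeq2, where Dclre1c (-0.25) and Polq (-0.29) were not called, and 2 to 4 with a library left out. Those called higher numbered 1 to 2 with a library left out, the 2 being without G3 *Terc*-/- replicate 1, where Nhej1 joined. At a fold change over 2 and an unadjusted p under 0.05 both counts were 0. With a library left out, log2 fold changes ran from -0.27 to -0.23 for Dclre1c, from -0.31 to -0.26 for Polq, from 0.05 to 0.91 for Nhej1, from -0.22 to -0.06 for Lig4, from -0.06 to 0.25 for Xrcc4 and from 0.10 to 0.26 for Tmem167. Tmem167 was not called with DESeq2 (0.18) or without a filter (0.16). Mcm4 changed sign with library sizes alone, at 6.21e-04. The wider lists' 3 lower genes became 0 with DESeq2, 1 with library sizes alone and 0 to 5 with a library left out, 0 without WT replicate 1, and their 8 higher genes became 5 to 8 with a library left out, with 5 without WT replicate 1, and 9 with library sizes alone. Among all genes DESeq2 called 2076 higher against 3238. The causes were not tested. The log2 difference of the Xrcc5 to Xrcc6 ratio stayed between 0.43 and 0.68 with a library left out. That of Xrcc4 to Lig4, 0.23 with all libraries, ran from 0.00 without WT replicate 2 to 0.47 without WT replicate 1. For Nhej1 to Xrcc4 it was 0.39 with all libraries. It ran from 0.04 without G3 *Terc*-/- replicate 2 to 0.75 without G3 *Terc*-/- replicate 1.

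The labels do not say that replicate numbers pair the libraries, and replicate deviations correlated at 0.0617 between genotypes. With the replicate number as a block, 9 of the wider lists' genes were lower in place of 3, 3551 genes were higher and 3583 lower in all, and the members' calls were 1 higher and 4 lower as without it.

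With the longest transcript as length, the mean level over 4 libraries moved to 10.4 for Trp53bp1, 34.7 for Xrcc6, 3.31 for Xrcc4, 5.41 for Prkdc, 3.87 for Dclre1c and 2.36 for Polq CPM per kilobase. The median of neighbouring genes moved, in a window of 0.5 Mb, to 0.0433 for Trp53bp1, 0.438 for Xrcc4, 0.113 for Xrcc5 and -0.390 for Polq, and, in a window of 2 Mb, to 0.0505 for Trp53bp1, 0.113 for Xrcc5, -0.0861 for Xrcc6, -0.167 for Lig4 and 0.0412 for Polq. The median of Prkdc was 0.0824 at 0.5 Mb and changed sign to -0.0304 at 2 Mb, and at 0.5 Mb those of Nhej1 and Xrcc6 were -0.0334 and 0.00365. Depth limits Nhej1 most, whose 44 to 78 counts gave a standard error of 0.26. A fit without 1 library assumes that the lone library of a genotype varies like the other pair.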
